A study of Mus musculus with 42 samples.

Results

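The transcripts of 9 genes whose proteins write, maintain or remove cytosine methylation in DNA were followed through the differentiation of mouse embryonic stem (ES) cells. The genes were chosen by name, as the DNA methyltransferases Dnmt1, Dnmt3a and Dnmt3b, the methyltransferase cofactors Dnmt3l and Uhrf1, the methylcytosine dioxygenases Tet1, Tet2 and Tet3, and the DNA glycosylase Tdg. All 9 were among the 14296 genes measured. The cells were W9.5 ES cells, a single line of 129X1/SvJ background that is common to every group, left to differentiate as embryoid bodies after the withdrawal of the cytokine LIF and with no added agent. Polyadenylated RNA was sequenced at 21 time points, every 6 h from 0 h (undifferentiated ES cells) to 120 h, in 2 biological duplicate courses, replicate A and replicate B, which gave 42 libraries. No other allele, treatment or control arm entered the design, so that time is the only contrast, and an embryoid body is a mixture of cell types whose proportions shift with time.

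In mammals methyl groups are added to the cytosine of CpG dinucleotides. DNMT3A and DNMT3B place them on unmethylated DNA (de novo methylation), helped by the catalytically inactive DNMT3L, whereas DNMT1, guided by UHRF1 to the hemimethylated sites left by replication, copies them to the new strand (maintenance methylation). TET proteins oxidise 5-methylcytosine stepwise, and TDG excises the most oxidised forms so that base excision repair can restore cytosine. ES cells are known for tolerating low methylation in the naive state, and the genome gains methylation as cells pass to the epiblast state, before the germ layers form.

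The reads counted per library ranged from 10120972 to 51652434 with a median of 29692082, and the 9 genes were counted with at least 165 reads in every library, so that none was near the limit of detection. Levels are given as log2 CPM, the log2 of a gene's reads relative to all reads counted in the library. Across genes, the duplicates correlated with r between 0.9585 (96 h) and 0.9935 (54 h), and their median SD was 0.107 over all genes and 0.090 over the 9 enzymes. The 96 h libraries stood apart. The summed level of 4 detected primitive streak and mesoderm markers was 97.1 CPM in replicate A and 462 CPM in replicate B at 96 h, against 88.4 and 128 CPM at 108 h. Differences from or to 96 h that the reported fit called are therefore given with and without each 96 h library. At 0 h the 8 pluripotency markers summed to 5076 and 5564 CPM, whereas 7 detected fibroblast and feeder markers summed to 24.5 and 28.1 CPM. Most of the latter sum was Thy1 (456 and 533 reads), with Col1a1 at 113 and 139 reads and Col3a1 and Dcn at 0 reads. By 120 h the pluripotency markers summed to 2228 and 2237 CPM and the fibroblast markers to 105 and 95.2 CPM. Col1a1 (5.94 and 5.86 log2 CPM) then made up most of the fibroblast sum, whereas Thy1 had fallen from 4.27 and 4.47 to 1.79 and 1.85. The endoderm markers (4 of 7 detected) went from at most 4.98 CPM at 0 h to 41.0 and 42.1 CPM at 120 h, the germ cell markers (5 of 5) from 46.9 and 42.9 to 127 and 131 CPM, and the blood markers (3 of 4) from 2.22 and 2.55 to 7.26 and 6.05 CPM. At 120 h the endoderm sum was mostly Dab2 (4.96 and 4.97 log2 CPM), with Foxa2 at 22 and 15 reads. The blood sum was then mostly Runx1 (178 and 129 reads), with Tal1 at 10 and 3 reads. Gata1 went from 41 and 43 reads at 0 h to 11 and 13 at 120 h. Tfap2c, at 361 and 334 reads at 0 h and 2282 and 2096 at 120 h, carried most of the germ cell sum at 120 h. The germ cell marker Dazl was at 1.91 and 1.53 log2 CPM at 0 h and at 1.54 and 1.30 at 120 h. The neuroectoderm markers (3 of 4) were highest at 6 h, the time of the Tet2 peak, with 150 and 147 CPM against 28.9 and 27.2 at 0 h, 16.8 and 13.5 at 96 h and 61.3 and 63.4 at 120 h. The 6 h sum was mostly Tubb3 and the 120 h sum mostly Sox1 (5.51 and 5.62 log2 CPM). Tubb3 was lower at 120 h (3.78 and 3.63) than at 0 h (4.66 and 4.58). In such bulk RNA, fewer cells of a type and less RNA per cell cannot be told apart, and the part of these cell types in the results below was not tested.

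The highest mean levels of the 9 enzymes lay at times from 6 h to 108 h. By the mean of the duplicates, Tet2 was highest at 6 h, Uhrf1 at 24 h, Dnmt1 and Tet1 at 30 h, Dnmt3l at 36 h, Dnmt3a at 42 h, Tdg at 48 h, Dnmt3b at 54 h and Tet3 at 108 h. In each replicate taken alone the time of the peak was the same for Tet2, Dnmt3a and Tet3, and lay within 6 h of that of the mean for the other 6 genes. The order of neighbouring peaks was therefore not resolved. In replicate A, Uhrf1, Dnmt1 and Tet1 were all highest at 30 h, and Tdg and Dnmt3b at 48 h. In replicate B, Uhrf1 and Tet1 were highest at 24 h, Dnmt3l and Dnmt3a at 42 h, and Tdg and Dnmt3b at 54 h. Dnmt3b and Tet2 spanned the widest ranges between their highest and lowest means, 4.14 and 4.58 on the log2 scale, and Dnmt1 the narrowest, 0.99.

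**Figure D1:**
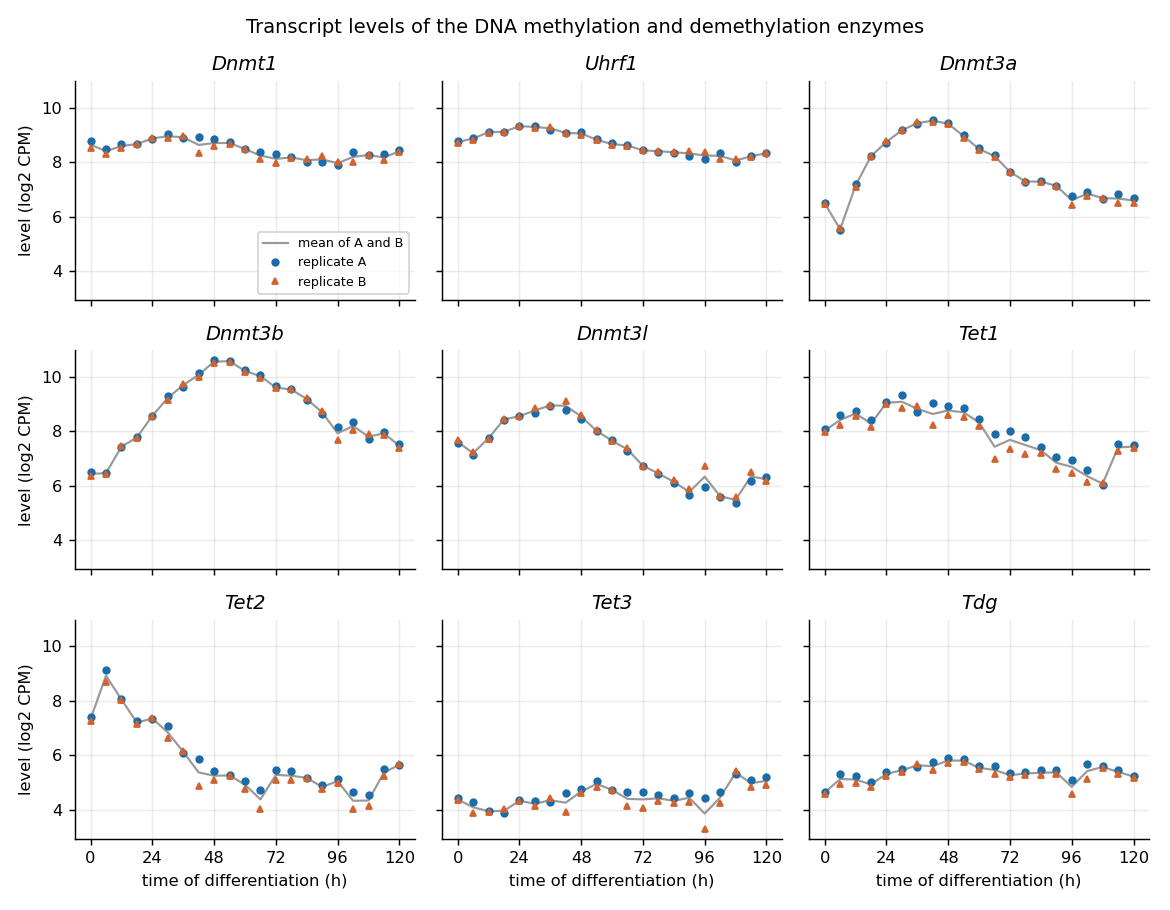
Transcript levels in log2 CPM (vertical axis) of the 9 enzymes at 21 time points (horizontal axis, h), with circles for replicate A, triangles for replicate B and a line through their means. Dnmt3a and Dnmt3b span 3.99 and 4.14 log2 units, with their highest means at 42 h and 54 h, and Tet2 peaks at 6 h. Dnmt1, Tdg and Uhrf1 stay within 0.99, 1.19 and 1.26 log2 units.

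**Figure D2:**
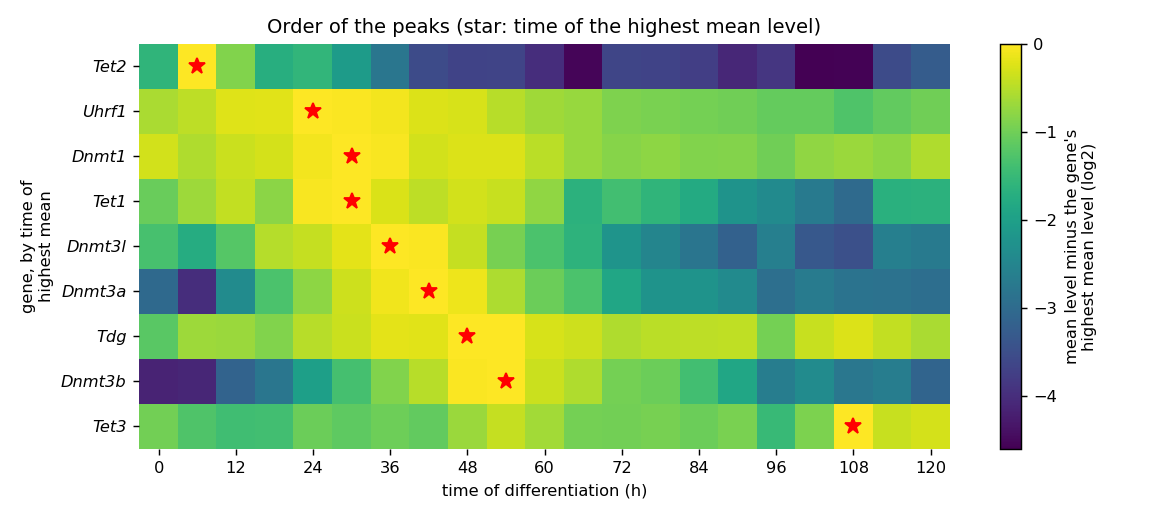
Mean level of each enzyme minus its own highest mean level (colour, log2) at each time point (horizontal axis, h), with genes sorted by the time of the highest mean, which a star marks. The stars run from 6 h for Tet2 to 108 h for Tet3, and 8 of the 9 lie at or before 54 h.

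Levels were compared between time points in a single linear model over all 42 libraries (limma), with an adjusted p under 0.0001 as the threshold, the one used for this series by its authors. Over the whole course (F test), 8 of the 9 enzymes differed between time points, against 74.6% of all genes, and the ninth, Tet3, had an adjusted p of 0.00026. Tet3 passed when the replicate letter was added as a block (adjusted p = 3.4e-06), which is the paired form of the test and called 80.4% of all genes, and with the length trend removed (adjusted p = 6.7e-06). Dnmt1 was lost under quantile normalization (adjusted p = 0.00011), which left 7 enzymes. A called difference over the course was the rule among all genes.

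Window by window, the counts of enzymes called were as follows. From 0 h to 6 h, 1 rose (Tet2) and 1 fell (Dnmt3a), where 11.8% of all genes rose and 14.5% fell. From 6 h to 24 h, 4 rose (Dnmt3a, Dnmt3b, Dnmt3l and Uhrf1) and 1 fell (Tet2), against 5.64% and 5.76% of all genes. From 24 h to 48 h, 2 rose (Dnmt3a and Dnmt3b) and 1 fell (Tet2), against 5.27% and 3.70%. All 4 genes called from 48 h to 72 h fell (Dnmt3a, Dnmt3b, Dnmt3l and Uhrf1), against 3.78% of all genes that fell and 5.60% that rose. Between 72 h and 96 h, 2 fell (Dnmt3a and Dnmt3b) and 0 rose, against 1.0% and 2.39%. Between 96 h and 108 h, Tet3 rose and Dnmt3l fell, against 3.85% of all genes that rose and 3.13% that fell. From 108 h to 120 h limma called 0 of the 9, while 2.39% of all genes rose and 1.73% fell. In that window 6 of the 9 had an unadjusted p under 0.05, as had 38.3% of all genes, and 3 were called with the replicate block (Dnmt3l, Tet1 and Tet2, all higher at 120 h), which called 2.96% of all genes higher. Over the 2 longer spans, 4 rose and 1 fell from 0 h to 48 h (14.8% and 15.6% of all genes), and 1 rose and 2 fell from 0 h to 120 h (12.9% and 10.1%). With the replicate block the count for 0 h to 120 h became 5, which added Uhrf1 and Tdg, against 25.8% of all genes called in either direction. The block also added Tet1 to those lower from 48 h to 72 h (5.11% of all genes) and Tdg to those higher from 96 h to 108 h (5.32%). Where only the libraries of the compared time points were fitted, with 2 residual degrees of freedom, 0 of the 9 and 0 of all genes were called from 48 h to 72 h, from 72 h to 96 h and from 96 h to 108 h, and from 108 h to 120 h 3 of the 9 were higher, against 2.76% of all genes.

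The median difference of the 9 enzymes was 0.48 from 6 h to 24 h and -0.62 from 48 h to 72 h, on the log2 scale, beside medians over all genes of -0.012 and 0.009. From 0 h to 48 h it was 0.74, beside 0.014 over all genes. This median of the 9 enzymes was 0.88 with median-centred libraries. It was 0.41 under quantile normalization (0.028 over all genes) and 0.46 with the length trend removed (0.027 over all genes). Centring each library on its median moved the median of all genes from 0 h to 48 h to 0.150 and the share of rises among all calls in that span from 48.7% to 59.6%. The same centring moved that share from 45.0% to 55.8% between 0 h and 6 h, from 59.7% to 48.8% between 48 h and 72 h and from 70.5% to 54.3% between 72 h and 96 h.

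**Figure D3:**
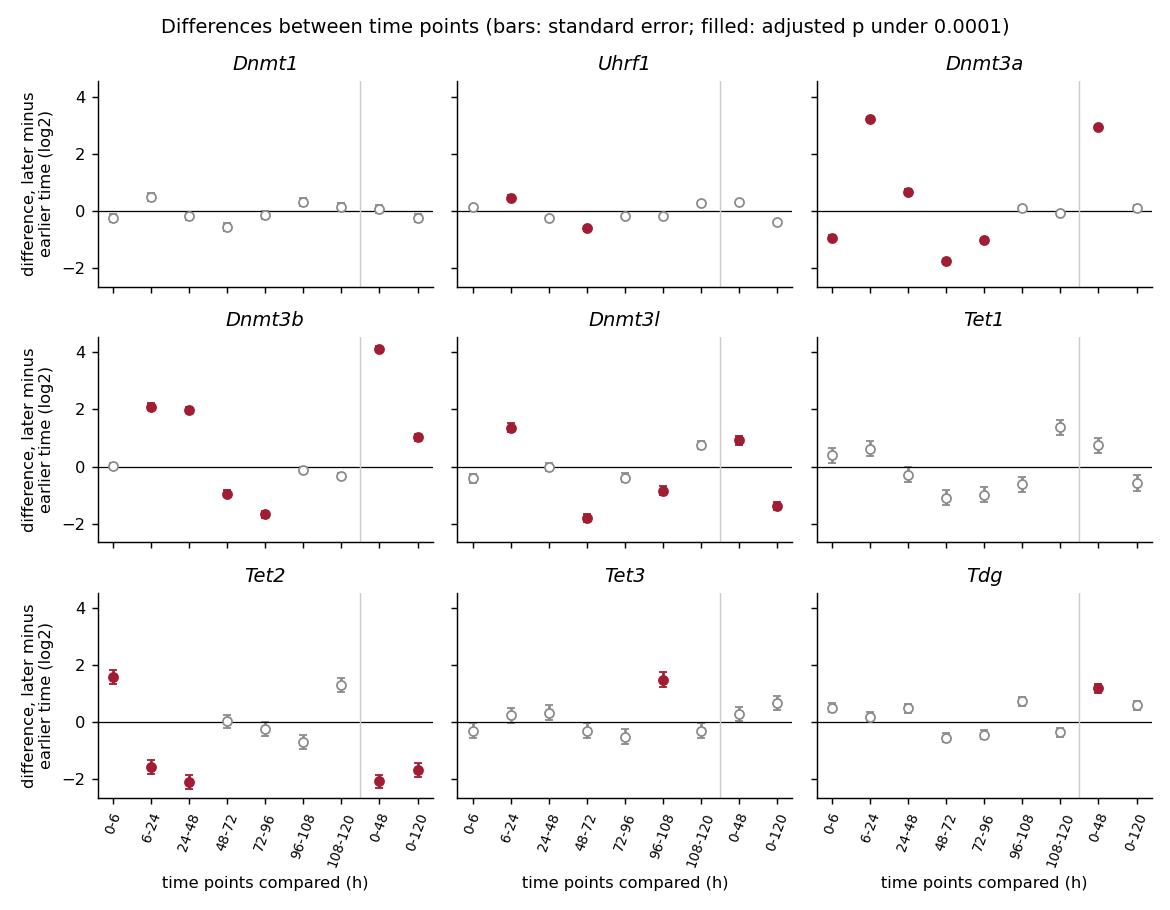
Log2 differences (vertical axis, later minus earlier time point, with standard errors) of the 9 enzymes in 7 consecutive windows and, right of the line, in the spans from 0 h to 48 h and from 0 h to 120 h (horizontal axis, h). Filled points passed an adjusted p under 0.0001. Dnmt3a and Dnmt3b have filled points above 0 from 6 h to 48 h and below 0 from 48 h to 96 h, Dnmt3a also has one below 0 from 0 h to 6 h, and Dnmt1 and Tet1 have no filled point.

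The maintenance genes Dnmt1 and Uhrf1 stayed within narrow ranges, 0.99 and 1.26 on the log2 scale, beside 1.19 for Tdg and 1.49 for Tet3. Dnmt1 (ENSMUSG00000004099.9, chr9:20907209-20959888, minus strand, GRCm38), which encodes the maintenance methyltransferase, stood at 8.77 and 8.51 in replicates A and B at 0 h, at 8.83 and 8.58 at 48 h and at 8.45 and 8.36 at 120 h. The duplicates of 0 h and 48 h overlapped, and both 120 h libraries lay below them. The highest mean was 8.95 at 30 h and the lowest 7.96 at 96 h (in replicate B alone the lowest level was that of 72 h, 7.95), and at all 21 time points the mean lay within 1 log2 unit of the highest. No window passed the threshold. The largest difference was that from 48 h to 72 h, -0.58 ± 0.14 (standard error, SE) on the log2 scale, with an adjusted p of 0.0021. With the length trend removed, as described below, this fall passed the threshold (-0.61, adjusted p = 8.9e-05). The difference from 0 h to 48 h, 0.06 ± 0.14, turned to -0.34 under quantile normalization.

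Uhrf1 (ENSMUSG00000001228.8, chr17:56303321-56323486, plus strand), whose protein reads hemimethylated CpG sites and recruits DNMT1, had levels of 8.79 and 8.70 at 0 h. It reached 9.31 and 9.34 at 24 h and came down to a mean of 8.06 at 108 h, its lowest in either replicate. The duplicates of these 3 time points did not overlap. Uhrf1 rose 1.38-fold from 6 h to 24 h (log2 difference 0.46 ± 0.08, adjusted p = 5.4e-05) and fell by 0.62 ± 0.08 on the log2 scale from 48 h to 72 h (adjusted p = 1.2e-06). The first call was lost when any 1 of its 4 libraries was left out (the remaining library of a time point is then taken to vary like the others), with differences between 0.42 and 0.51 and adjusted p-values from 0.00043 to 0.0024. The second was lost without replicate A of 48 h (-0.59, adjusted p = 0.00012) and under quantile normalization (-0.36, adjusted p = 0.00026). At 120 h Uhrf1 was at 8.33 and 8.34, below both 0 h libraries, with a difference from 0 h of -0.41 ± 0.08 (adjusted p = 0.00013). This difference passed the threshold with the replicate block (9.7e-05) and, at -0.50, under quantile normalization (7e-07). The difference from 0 h to 48 h, 0.31 ± 0.08 (adjusted p = 0.0019), passed with median-centred libraries (0.45, adjusted p = 4.7e-05). It turned to -0.08 under quantile normalization. In that setting Uhrf1 was also called lower from 96 h to 108 h (-0.42, adjusted p = 3.4e-05) and higher from 108 h to 120 h (0.41, adjusted p = 8.1e-05).

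The courses of the 2 maintenance genes were alike, with a Pearson r of 0.90 over the 21 mean levels. This likeness was not particular to the pair. Uhrf1 was closer to Dnmt3l (0.95) and Tet1 (0.93) than to Dnmt1, and Dnmt1 had r of 0.88 with Dnmt3l and 0.85 with Tet1. These r values are given as a description, since the points share their libraries and follow each other in time. The genes whose mean levels were most like those of Uhrf1 were Mcm10 (r = 0.989), Zcchc8 (0.979) and Mcm3 (0.974). MCM10 and MCM3 act at replication origins. For Dnmt1 they were Gbf1 (0.957), Sap130 (0.949) and Cnot10 (0.939).

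Both maintenance genes carry the letters TTTCGCGC, a spelling of the motif of E2F factors that are known to drive genes of S phase, within the 250 bases before a RefSeq transcription start (GRCm38.p6). The letters were searched on both strands, on which they read TTTCGCGC or GCGCGAAA, and occur in 0.26% of 32851 such windows. Of 16 windows of the 9 enzymes, only those of Uhrf1 and Dnmt1 shown here hold them, and the spellings TTTCCCGC, TTTGCCGC and TTTGGCGC, found in 0.89%, 0.34% and 0.42% of all windows, occur in none of the 16. The search was made after the courses were known and is a description of letters, not of binding. The sequences are shown because both maintenance genes share these letters, which stand in capitals. The Uhrf1 window is chr17:56304063-56304312 (plus strand), with the match beginning 185 bases before the start and with 30 CpG sites. The Dnmt1 stretch is the 30 bases at chr9:20952824-20952853 (minus strand), with the match beginning 219 bases before the start, inside an annotated exon of another Dnmt1 transcript.
Uhrf1: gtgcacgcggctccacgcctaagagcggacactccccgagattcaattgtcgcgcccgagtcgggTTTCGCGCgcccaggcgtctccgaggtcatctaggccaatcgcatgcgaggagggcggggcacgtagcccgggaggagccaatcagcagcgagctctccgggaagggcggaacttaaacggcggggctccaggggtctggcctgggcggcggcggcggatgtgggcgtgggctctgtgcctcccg
Dnmt1: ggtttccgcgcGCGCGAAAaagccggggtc

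The de novo methyltransferase genes Dnmt3a and Dnmt3b made the largest rises from 0 h to 48 h. Dnmt3a (ENSMUSG00000020661.9, chr12:3806007-3914443, plus strand) fell before it rose. It stood at 6.51 and 6.46 at 0 h, at 5.50 and 5.57 at 6 h, at 7.19 and 7.09 at 12 h and at 9.56 and 9.49 at 42 h. The 6 h libraries lay below both 0 h libraries, and the 42 h libraries were the highest of their replicates. The fall over the first 6 h was 1.93-fold (log2 difference -0.95 ± 0.09, adjusted p = 3.4e-09), and the rise from 6 h to 24 h was 9.22-fold (3.21 ± 0.09, adjusted p = 3.1e-19). Dnmt3a went on to rise from 24 h to 48 h (0.67 ± 0.09, adjusted p = 3e-06). This step was lost without replicate A of 24 h (0.63, adjusted p = 0.00026), without replicate A of 48 h (0.65, adjusted p = 0.00017) and with the length trend removed (0.55, adjusted p = 0.0011).

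After its peak Dnmt3a returned to where it began. It fell by 1.77 ± 0.09 on the log2 scale from 48 h to 72 h (adjusted p = 2.4e-13) and by 1.04 ± 0.09 from 72 h to 96 h (adjusted p = 9.1e-09). The latter fall was 1.21 without the 96 h library of replicate A and 0.87 without that of replicate B, with both calls kept. At 120 h the levels were 6.69 and 6.49, and those of 0 h, 6.51 and 6.46, overlapped with them. The difference between 0 h and 120 h was 0.11 ± 0.09 (adjusted p = 0.36), which turned to -0.19 with the length trend removed. Arl4a (r = 0.963), Enpp3 (0.958) and Il10 (0.957) had the most similar courses.

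Dnmt3b (ENSMUSG00000027478.9, chr2:153649450-153687730, plus strand) did not share the early fall and stayed up longer. It stood at 6.52 and 6.37 at 0 h and at 6.49 and 6.45 at 6 h, and the duplicates of these time points overlapped. It then climbed to 8.57 in both replicates at 24 h, to 10.61 and 10.51 at 48 h and to 10.60 and 10.56 at 54 h. At its highest it was counted with 35610 and 59442 reads. From 0 h to 48 h Dnmt3b rose 17.3-fold (4.11 ± 0.11, adjusted p = 5.5e-21), and this was the largest rise of the 9 enzymes in that span. The steps from 6 h to 24 h (2.10 ± 0.11) and from 24 h to 48 h (1.99 ± 0.11) were both called, with adjusted p-values of 3.7e-14 and 2.3e-13, beside 3.21 and 0.67 for Dnmt3a.

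Dnmt3b fell later than Dnmt3a. On its way down the mean level passed the middle between peak and later minimum at 86.1 h, against 67.7 h for Dnmt3a and 67.2 h for Dnmt3l. In the single replicates these times were 84.8 and 87.3 h for Dnmt3b, 67.4 and 68.5 h for Dnmt3a and 67.3 and 66.4 h for Dnmt3l, so the ranges of Dnmt3b and the other 2 did not overlap. The middle of the rise was passed at 23.6 h by Dnmt3b, at 14.1 h by Dnmt3a and at 14.9 h by Dnmt3l. The fall of Dnmt3b was 0.95 ± 0.11 on the log2 scale from 48 h to 72 h (adjusted p = 2.2e-07, and 0.00049 with a difference of -0.71 under quantile normalization). From 72 h to 96 h it was -1.68 ± 0.11 (adjusted p = 2.1e-11), -1.91 without replicate A of 96 h and -1.45 without replicate B. At 120 h, with 7.54 and 7.39, Dnmt3b was still 2.03-fold above 0 h (1.02 ± 0.11, adjusted p = 1.3e-08). Lgr4 (r = 0.980), Cyp4x1 (0.977) and Jakmip2 (0.975) followed the most similar courses.

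Dnmt3l (ENSMUSG00000000730.7, chr10:78041947-78063622, plus strand), which encodes the inactive partner of the de novo enzymes, started higher and ended lower than it began. It stood at 7.56 and 7.69 at 0 h, at 7.15 and 7.25 at 6 h, at 8.94 and 8.97 at 36 h and at 5.36 and 5.61 at 108 h. The 36 h libraries lay above those of 0 h and the 108 h libraries below them. Dnmt3l rose 2.56-fold from 6 h to 24 h (1.36 ± 0.15, adjusted p = 5e-08), showed a difference of -0.01 ± 0.15 from 24 h to 48 h, and then fell by 1.81 ± 0.15 on the log2 scale up to 72 h (adjusted p = 8.7e-10). Its rise from 0 h to 48 h, 0.92 ± 0.15 (adjusted p = 7.4e-06), was lost without replicate A of 0 h (0.86, adjusted p = 0.00041), without replicate B of 48 h (0.85, adjusted p = 0.00044) and under quantile normalization (0.62, adjusted p = 0.0013).

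Late in the course Dnmt3l differed between the duplicates. At 96 h it was at 5.97 in replicate A and at 6.72 in replicate B, the library with the high primitive streak markers, while at 90 h the levels were 5.65 and 5.90 and at 102 h 5.61 and 5.63. The fall from 96 h to 108 h, -0.85 ± 0.15 (adjusted p = 8.4e-05), was not stable. It was -0.48 (adjusted p = 0.0088) without replicate B of 96 h, -0.73 (adjusted p = 0.0054) without replicate A of 108 h and -0.98 (adjusted p = 0.00036) without replicate B of 108 h, and it kept the call at -1.23 without replicate A of 96 h. It was also lost with median-centred libraries (adjusted p = 0.00015), with no variance trend (0.00022) and with the length trend removed (0.00012). At 114 h Dnmt3l had come back to 6.18 and 6.52, and from 108 h to 120 h it rose by 0.75 ± 0.15, which missed the threshold (adjusted p = 0.0005) and passed it with the replicate block (5.4e-05) or with the compared libraries alone (7.7e-05). The level at 120 h, 6.31 and 6.18, was 2.60-fold below that at 0 h (-1.38 ± 0.15, adjusted p = 1.4e-08). The courses most like that of Dnmt3l were those of Smpdl3b (r = 0.988), Ccne1 (0.984) and Ing1 (0.983), the second of which encodes cyclin E1.

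The 3 genes differ in the CpG sites, the substrate of these enzymes, that their own promoters hold. In the 250 bases before a RefSeq start Dnmt3a holds 15 to 40 CpG sites over 3 starts, Dnmt3b 21 at its single start and Dnmt3l 3 to 5 over 3 starts, whereas the median of all 32851 windows is 6 and their middle 50% lie between 2 and 16. The files do not say which start was used. One window of Dnmt3b and one of Dnmt3l that overlaps no annotated exon are shown, because the 2 genes rose together from 6 h to 24 h and then parted. CpG dinucleotides are in capitals. The Dnmt3b window is chr2:153649199-153649448 (plus strand, 21 CpG sites) and the Dnmt3l window chr10:78049592-78049841 (plus strand, 4 CpG sites), both on GRCm38.p6.
Dnmt3b: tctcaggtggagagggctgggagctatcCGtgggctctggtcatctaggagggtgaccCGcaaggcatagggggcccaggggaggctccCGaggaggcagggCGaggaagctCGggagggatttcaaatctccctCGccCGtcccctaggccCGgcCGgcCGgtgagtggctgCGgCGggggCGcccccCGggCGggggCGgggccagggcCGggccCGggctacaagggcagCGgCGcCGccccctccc
Dnmt3l: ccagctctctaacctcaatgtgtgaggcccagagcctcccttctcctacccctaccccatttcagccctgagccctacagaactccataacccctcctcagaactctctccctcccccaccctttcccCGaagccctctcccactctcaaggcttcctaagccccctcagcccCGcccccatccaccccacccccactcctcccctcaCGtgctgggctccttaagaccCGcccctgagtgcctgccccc

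Since a longer transcript yields more reads, levels of different genes were compared as CPM per kb of merged exons. Of the summed level of the 3 Dnmt3 genes, Dnmt3l made up 72.9% and 76.2% in replicates A and B at 0 h, 25.5% and 28.8% at 48 h, and 38.4% and 38.7% at 120 h. Dnmt3b made up 20.8% and 17.9% at 0 h, 65.6% and 62.4% at 48 h and 79.3% and 78.6% at 78 h, its highest share, and 52.6% and 52.7% at 120 h. Dnmt3a never exceeded a mean of 11.6% (30 h). The mean share of Dnmt3b was below that of Dnmt3l up to 36 h and above it from 42 h on. In replicate B Dnmt3b was already slightly ahead at 36 h, with 44.5% against 44.3%. At 96 h the replicates disagreed, with Dnmt3l at 25.1% in A and 43.4% in B. With the length of the longest annotated transcript instead of merged exons, Dnmt3l and Dnmt3b had mean shares of 32.9% and 55.9% at 48 h, and of 45.0% and 44.3% at 120 h, so that their order at 120 h depends on the length used. By that length the mean share of Dnmt3l was also still above that of Dnmt3b at 42 h, 45.2% against 42.1%. The means then crossed between 42 h and 48 h. At 42 h the replicates disagreed, with Dnmt3b at 45.5% and Dnmt3l at 41.2% in A. In B they were at 38.7% and 49.3%.

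**Figure D4:**
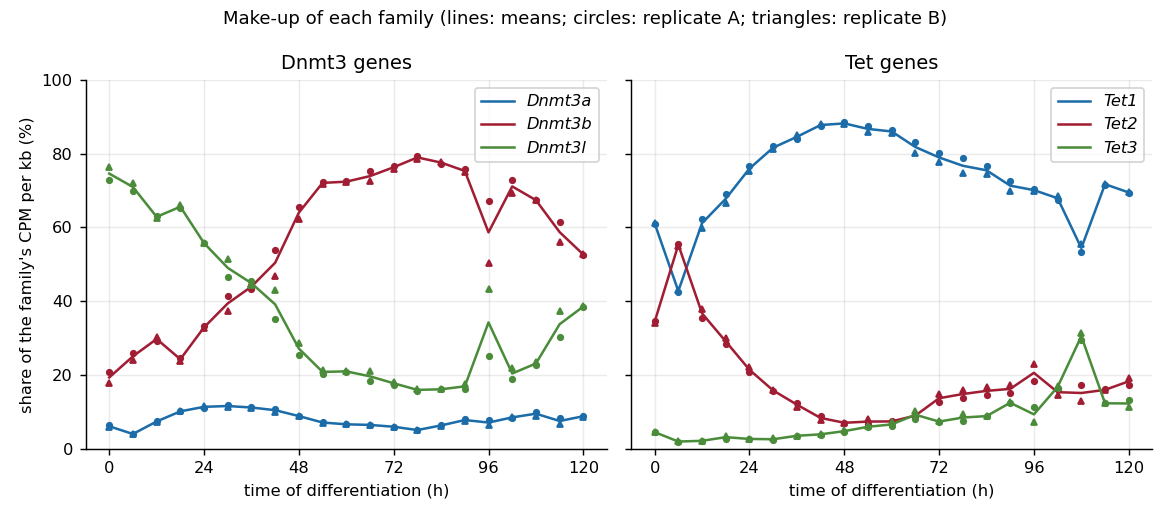
Share of each gene (vertical axis, %) in the summed CPM per kb of merged exons of the Dnmt3 genes (left) and the Tet genes (right) at 21 time points (horizontal axis, h), with lines for means, circles for replicate A and triangles for replicate B. By this length the mean of Dnmt3b passes that of Dnmt3l between 36 h and 42 h, Tet2 exceeds Tet1 only at 6 h, and the share of Tet3 reaches 29.5% and 31.5% at 108 h.

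Among the dioxygenases, Tet2 made the earliest move. Tet2 (ENSMUSG00000040943.8, chr3:133463679-133545139, minus strand) went from 7.40 and 7.25 at 0 h to 9.14 and 8.70 at 6 h, then to 8.06 and 8.04 at 12 h, 7.32 and 7.37 at 24 h and 5.42 and 5.08 at 48 h. Only the 6 h and 12 h means lay within 1 log2 unit of the highest. The rise over the first 6 h was 3.01-fold (1.59 ± 0.24, adjusted p = 3.3e-06), and falls of -1.57 ± 0.24 from 6 h to 24 h (adjusted p = 8.8e-06) and -2.09 ± 0.24 from 24 h to 48 h (adjusted p = 1.2e-07) followed. The rise was lost without replicate B of 0 h (1.52, adjusted p = 0.00019) and without replicate A of 6 h (1.37, adjusted p = 0.0004). The fall from 6 h to 24 h was lost without replicate A of 6 h (-1.35, adjusted p = 0.00095), A of 24 h (-1.55, adjusted p = 0.00034) or B of 24 h (-1.60, adjusted p = 0.00024).

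From 48 h on Tet2 stayed low. Its means lay between 4.33 (102 h) and 5.65 (120 h), and the libraries at 102 h held 773 and 298 reads of it. At 108 h it stood at 4.54 and 4.15, and at 120 h at 5.63 and 5.68, so that the duplicates did not overlap. This late rise of 1.31 ± 0.24 missed the threshold (adjusted p = 0.00022) and passed it with the replicate block (2.9e-06), when the 9 contrasts were corrected together (8.3e-05), under quantile normalization (9.7e-05), with the compared libraries alone (1.1e-05) and with the length trend removed (6.3e-09). Tet2 ended 3.19-fold below its 0 h level (-1.67 ± 0.24, adjusted p = 1.5e-06, and 0.0001 without replicate A of 0 h, where the difference was -1.60). Pla2g4e (r = 0.969), Cep55 (0.968) and Ttc39b (0.959) had the most similar courses.

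Tet1 (ENSMUSG00000047146.9, chr10:62804570-62908996, minus strand) was the most abundant dioxygenase per kb of merged exons at every time point but 6 h. With the longest transcript as the length, Tet2 also led at 12 h by the mean share, 49.4% against 48.2%. It stood at 8.09 and 7.97 at 0 h, at 9.32 and 8.85 at 30 h, at 8.94 and 8.60 at 48 h, at 8.01 and 7.36 at 72 h and at 6.04 and 6.12 at 108 h, and it returned to 7.54 and 7.29 at 114 h. Its lowest libraries were those of 108 h in both replicates. No window of Tet1 passed the threshold, although the course as a whole did (adjusted p = 4.6e-11). The fall from 48 h to 72 h, -1.09 ± 0.27 (adjusted p = 0.0024), passed with the replicate block (1.9e-05) and with the length trend removed (2.4e-06). The rise from 108 h to 120 h, 1.37 ± 0.27 (adjusted p = 0.00045), passed with the block (1.5e-06), with the compared libraries alone (4e-07) and with the length trend removed (1.3e-07). In this last setting the differences from 96 h to 108 h (-0.89, adjusted p = 8.3e-05) and from 0 h to 120 h (-0.86, adjusted p = 5e-05) passed too. Supt20 (r = 0.975), Prpf8 (0.970) and Bnc2 (0.969) had the most similar courses.

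Tet3 (ENSMUSG00000034832.9, chr6:83362373-83459084, minus strand) was the least abundant of the 9 per length at 0 h, 48 h and 120 h, and the last to peak. It stood at 4.42 and 4.35 at 0 h, 4.75 and 4.60 at 48 h, 4.43 and 3.30 at 96 h, 5.30 and 5.41 at 108 h and 5.21 and 4.91 at 120 h. The 108 h libraries were the highest of their replicates, with 1346 and 1189 reads, and were above both 96 h libraries. From 96 h to 108 h Tet3 rose 2.81-fold (1.49 ± 0.26, adjusted p = 6e-05), its single called window. The call depended on 3 of the 4 libraries of the window. The difference was 0.93 (adjusted p = 0.0071) without 96 h replicate B, 1.54 (adjusted p = 0.00096) without 108 h replicate A and 1.44 (adjusted p = 0.0019) without 108 h replicate B, and it kept the call at 2.05 without 96 h replicate A. It was also lost when the residual variance was not modelled as a trend (adjusted p = 0.00017). Klf13 (r = 0.882), Smurf1 (0.852) and Plxna1 (0.851) were the most similar, at lower r than for any other enzyme.

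Within the Tet family the leading gene by merged exons was Tet2 at 6 h and Tet1 at the other time points. Tet1 made up 60.9% and 61.2% of the summed CPM per kb at 0 h, 42.5% and 43.0% at 6 h, 88.5% and 87.9% at 48 h and 69.4% and 69.5% at 120 h. Tet2 made up 34.6% and 34.2% at 0 h, 55.6% and 55.0% at 6 h and 7.08% and 7.02% at 48 h. Tet3 made up 1.95% and 1.98% at 6 h, and at 108 h 29.5% and 31.5%, against 16.4% and 17.1% at 102 h and 12.4% and 12.3% at 114 h. The replicates differed by less than 3 percentage points in every one of these shares. With the length of the longest transcript, Tet1 and Tet2 had nearly equal mean shares at 0 h, 48.4% and 46.5%. At 12 h the order of these 2 genes then differed between the replicates, with Tet1 at 49.5% and 46.9% and Tet2 at 48.2% and 50.6%.

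Because the Tet genes have long transcripts, with merged exons of 15457 to 16870 bp against 2988 bp for Dnmt3l, their duplicates were compared with those of other long genes. For each library the median deviation of 1803 genes shorter than 2000 bp was subtracted from that of 2304 genes longer than 8000 bp. This value was 0.06 in replicate A and -0.62 in replicate B at 42 h, 0.07 and -0.46 at 66 h, and -0.02 and -0.32 at 96 h. At 42 h replicate A exceeded replicate B by 0.78 for Tet1, 0.96 for Tet2, 0.73 for Tet3 and 0.56 for Dnmt1, whereas Dnmt3l was lower in A, with a difference of -0.33. Dnmt3a did not move with these genes at 42 h and 66 h. Its merged exons, of 16642 bp, are as long as those of the Tet genes, and its replicates differed by 0.07 at 42 h and 0.05 at 66 h. At 96 h replicate A exceeded replicate B by 0.34 for Dnmt3a, beside 0.31 for long minus short genes. The values of 114 h were 0.31 and 0.25. At 24 h the length values of the replicates were -0.01 and 0.01. The differences between replicates then lay between -0.05 and 0.06 for the 3 Tet genes, Dnmt1 and Dnmt3l. The part of this trend in the levels of single genes was not tested. A fit on values with a smooth length trend removed from each library, added after the data were seen, is the alternative named above as "length trend removed".

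**Figure D5:**
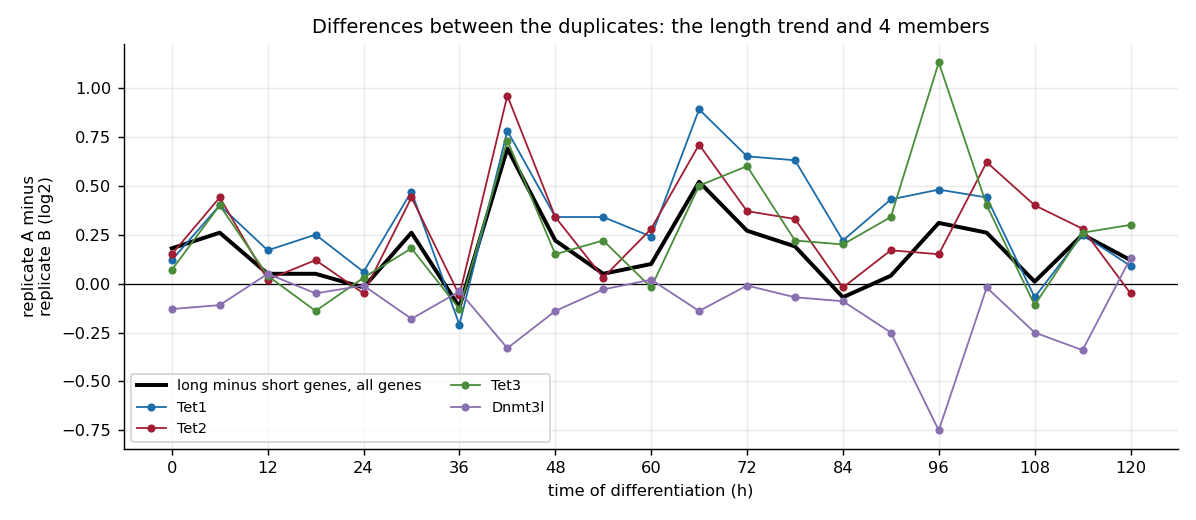
Replicate A minus replicate B (vertical axis, log2) at each time point (horizontal axis, h) for Tet1, Tet2, Tet3 and Dnmt3l, and, as the thick black line, for the median deviation of long genes minus that of short genes. The black line is highest at 42 h (0.69) and 66 h (0.52), where Tet1, Tet2 and Tet3 are also above 0, and Dnmt3l is below 0 at both.

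The Tet2 promoter window is shown as the one with the most CpG sites of the 16, against a median of 6 over all windows. It holds 51 CpG sites, in capitals, and lies at chr3:133544391-133544640 (minus strand, GRCm38.p6). The single windows of Tet1 and Tet3 hold 15 and 17, and that of Tdg 19.
Tet2: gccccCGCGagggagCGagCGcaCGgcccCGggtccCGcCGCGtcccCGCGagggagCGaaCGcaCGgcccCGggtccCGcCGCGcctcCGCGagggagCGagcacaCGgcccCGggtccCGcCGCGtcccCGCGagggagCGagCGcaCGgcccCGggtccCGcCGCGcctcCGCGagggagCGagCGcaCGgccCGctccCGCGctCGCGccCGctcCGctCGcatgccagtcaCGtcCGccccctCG

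Tdg (ENSMUSG00000034674.12, chr10:82629828-82650799, plus strand) encodes the glycosylase that removes oxidised methylcytosines. It stood at 4.67 and 4.59 at 0 h, 5.91 and 5.72 at 48 h, 5.10 and 4.59 at 96 h, 5.62 and 5.52 at 108 h and 5.25 and 5.18 at 120 h. Both 48 h libraries were above both 0 h libraries. The rise from 0 h to 48 h was 2.28-fold (1.19 ± 0.16, adjusted p = 4.6e-07). The differences from 96 h to 108 h (0.73 ± 0.16, adjusted p = 0.00098) and from 0 h to 120 h (0.59 ± 0.16, adjusted p = 0.0031) missed the threshold and passed it with the replicate block (6.9e-06 and 3.9e-05), the former also without replicate A of 96 h (0.98, adjusted p = 9e-05). Without replicate B of 96 h it was 0.47 and missed the threshold.

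The reads of Tdg cannot be fully separated from those of a processed pseudogene, Gm9855 (ENSMUSG00000085666.2, chr10:42054113-42055306), whose transcript matches that of Tdg at 99.25% of 1194 aligned bases. Between 66.7% and 77.5% of the reads counted on the 2 genes in a library were on Gm9855, which had 929 to 5047 reads against 399 to 2355 on Tdg. The mean courses of both were alike (r = 0.921, with Sec24d at 0.925 and Med14 at 0.923 the other most similar genes). With the reads of both added, the mean level was 6.48 at 0 h and 7.47 at 48 h, a difference of 0.99. Dnmt3c, which matches Dnmt3b at 93.29% of 1655 bases, and Tdg-ps, which matches Tdg at 98.69% of 2968, are not among the genes analysed here, and reads shared with them would be part of the values above.

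Ordered by mean CPM per kb of merged exons, the enzymes stood at 0 h as Uhrf1 (101), Dnmt3l (66.0), Dnmt1 (54.3), Dnmt3b (17.1), Tet1 (16.9), Tet2 (9.54), Dnmt3a (5.39), Tdg (4.60) and Tet3 (1.25). Only Dnmt3b and Tet1 could not be placed by their duplicates, which overlapped. At 48 h Dnmt3b led (295), followed by Dnmt3l (125) and Uhrf1 (125), whose duplicates overlapped, and then by Dnmt1 (56.7), Dnmt3a (40.9), Tet1 (28.5), Tdg (10.5), Tet2 (2.28) and Tet3 (1.53). At 120 h Uhrf1 led again (75.7), before Dnmt1 (45.9), Dnmt3b (34.6), Dnmt3l (25.4), Tet1 (11.4), Tdg (6.92), Dnmt3a (5.81), Tet2 (2.98) and Tet3 (2.01), with no overlap between neighbours. With the longest transcript as the length, Tet1 and Tet2 overlapped at 0 h (18.21 and 17.53) and Dnmt1 and Dnmt3a at 48 h (71.25 and 70.27). By that length Dnmt3l and Dnmt3b, and Tdg and Dnmt3a, overlapped at 120 h. Uhrf1 and Dnmt1 held at least 75.5 and 44.5 CPM per kb in every library of these 3 time points.

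Genes that work with the enzymes were counted by lists. The lists were drawn up with earlier results of this series known, so their counts are descriptions. For comparison with each list below, 14.8% of all genes rose and 15.6% fell from 0 h to 48 h. From 0 h to 120 h these shares were 12.9% and 10.1%. Of 14 partners in maintenance and recruitment, 4 rose and 1 fell from 0 h to 48 h (median log2 difference 0.37, against 0.014 over all genes), and 0 rose and 3 fell from 0 h to 120 h (median -0.06). The split up to 48 h was 3 to 3 under quantile normalization. Hells, a remodeller needed for DNA methylation, rose by 1.43 ± 0.15, Cdca7l by 1.12 ± 0.16 and Ehmt1 by 0.90 ± 0.10. Zfp57, which holds methylation at imprinted regions, fell from 9.56 and 9.50 to 7.45 and 7.44 at 48 h (-2.09 ± 0.15) and was at -1.71 ± 0.15 relative to 0 h at 120 h. Ehmt2 (-1.02 ± 0.09) and Lig1 (-0.56 ± 0.08) were the others named at 120 h.

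Of 20 genes of demethylation and base excision, 19 were measured. Of these, 3 rose and 3 fell up to 48 h (median -0.37), near the shares of all genes (14.8% and 15.6%). Under quantile normalization 2 rose and 4 fell. Up to 120 h, 3 rose and 5 fell (median -0.50), against 12.9% and 10.1% of all genes. Gadd45b, a stress-induced gene linked to demethylation, fell from 4.07 and 4.22 to 0.31 and -0.09 at 48 h (-4.03 ± 0.22), in the opposite direction to Tdg, and stood at 5.67 and 5.64 at 120 h (1.51 ± 0.22). Gadd45g rose at both times, by 1.34 ± 0.26 and 2.93 ± 0.26. Among the other glycosylase genes, Neil1 fell by 1.23 ± 0.18 and Smug1 by 0.94 ± 0.11 on the log2 scale up to 48 h, the span in which Tdg rose, and Ung fell by 0.95 ± 0.11 up to 120 h. Neil2, Neil3 and Mbd4 were called in neither span. Apobec3 fell by 1.09 ± 0.14 up to 120 h.

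Of 14 readers of methylated or unmethylated CpG, 5 rose and 1 fell up to 48 h (median 0.35; 5 and 0 with median-centred libraries) and 4 rose and 0 fell up to 120 h (median 0.34). Zbtb33, which encodes the methyl-CpG binding protein Kaiso, rose by 2.03 ± 0.21 and 1.22 ± 0.21 in the 2 spans. Kdm2b (1.37 ± 0.09) and Mbd3 (0.82 ± 0.13) rose up to 48 h, and Zbtb4 (1.60 ± 0.27) and Mbd1 (0.84 ± 0.13) up to 120 h. Cxxc4, which lies beside Tet2 and encodes a CpG-binding partner of it, had 1 read in each 0 h library, 41 and 43 at 48 h and 126 and 104 at 120 h. With the reads of both libraries added, it went from 2 to 84 at 48 h, a ratio of 35.2 relative to library size (95% counting interval 9.5 to 295.8). At 120 h the added reads were 230 (ratio 105.9, interval 29 to 879.6).

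Of 16 regulators and cofactor genes, 2 rose and 4 fell up to 48 h (median -0.18; 4 and 4 with median-centred libraries, 2 and 7 under quantile normalization), and 2 rose and 3 fell up to 120 h. Prdm14, which is known to repress Dnmt3b and Dnmt3l in ES cells, fell from 4.66 and 4.69 to 0.57 and 0.52 at 48 h (-4.13 ± 0.23). Mat2a, whose product makes the methyl donor S-adenosylmethionine, rose by 1.77 ± 0.11. Zfp42 (-2.30 ± 0.17) and Nanog (-1.88 ± 0.12) fell over the same span. At 120 h Dppa3 was up by 3.12 ± 0.38, and Shmt2 (-1.82 ± 0.16), Zfp42 (-1.56 ± 0.17) and Idh1 (-1.04 ± 0.13) were down.

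Of 23 replication genes, 4 rose and 0 fell up to 48 h (median 0.16), a direction that quantile normalization turned to 0 and 3 (median -0.17), and 0 rose and 7 fell up to 120 h (median -0.42). Tyms (0.87 ± 0.17), Mcm2 (0.64 ± 0.09) and Cdc6 (0.50 ± 0.10) were among those that rose, and Gins2 (-1.23 ± 0.12), Rrm2 (-0.90 ± 0.12), Cdt1 (-0.88 ± 0.11) and Gins1 (-0.85 ± 0.15) led the 7. From 48 h to 72 h, the window in which Uhrf1 fell, 5 of the 23 fell and 0 rose (median -0.39), against 3.78% and 5.60% of all genes. Under quantile normalization 0 of the 23 were called in that window (median -0.19).

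Of 9 naive pluripotency genes, 7 fell up to 48 h (median -2.71), led by Tcl1 (-5.48 ± 0.27), Klf4 (-5.25 ± 0.21), Tbx3 (-4.42 ± 0.28) and Tfcp2l1 (-3.14 ± 0.19). By 120 h, 5 were below 0 h, with Tcl1 at -2.91 ± 0.27, Klf4 at -2.48 ± 0.21, Fgf4 at -1.86 ± 0.10 and Tbx3 at -1.78 ± 0.28. Of 7 epiblast genes, 6 rose up to 48 h (median 4.70), with Fgf5 at 7.39 ± 0.18, Zic2 at 6.16 ± 0.13, Sox3 at 5.20 ± 0.25 and Sall2 at 4.70 ± 0.21. At 120 h 6 were above 0 h and 1, Foxd3, was below (median 2.74), led by the same 4 genes with 7.15 ± 0.18 for Fgf5, 5.59 ± 0.13 for Zic2, 3.66 ± 0.21 for Sall2 and 2.74 ± 0.25 for Sox3.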

How the data were processed

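Stranded, paired-end libraries of polyadenylated RNA were trimmed with Trim Galore, aligned to mm10 with TopHat2 and counted per GENCODE vM2 gene with HTSeq by the authors, with tool versions not given in the sources used here. The deposited values are log2 CPM, which the authors made by normalizing library size with edgeR and transforming with voom. Each value gave back a whole read count to within 2.9e-08 of a read, from which reads per library were taken. GENCODE vM21 gave positions and lengths for 14177 of 14296 genes. Promoter sequences are those of RefSeq on GRCm38.p6, a reference of another strain than the cells.

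Levels were fitted with limma 3.58.1 in R 4.3.3 (lmFit on a 21-level time factor over all 42 libraries, then eBayes with a trend, 21 residual degrees of freedom), and p-values were adjusted by Benjamini-Hochberg over all genes within each contrast. With 2 libraries per time point, p-values rest on the spread pooled over the course. The reported fit held no replicate block. The block, used as an alternative, treats the letters A and B as pairing the libraries, since the study describes 2 courses. The residuals of same-lettered libraries had a mean correlation of 0.080 (from -0.474 to 0.598 over 210 pairs of time points). The scripts were tested on simulated data. Copies were searched with BLAST 2.17.0 at 90% identity or more. The enzymes, lists and tests were chosen with earlier results of these data known. Named beside the enzymes are, for each list, the 4 called genes with the largest differences in each of the 2 long spans and, for each enzyme, the 3 genes of highest r. One gene that this rule names is not reported here. The E2F-type letters and the pseudogene were looked at after the values were seen.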

Additional observations from a re-analysis of the deposited data

How the results depend on the processing

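Of 1062 log2 differences of single enzymes recomputed under another setting (9 of them, for Tdg with the reads of Gm9855 added, with no test), 971 kept their direction and their side of the threshold, and 24 changed sign, none of them called in the reported fit. The causes of these changes were not tested. The replicate block, the paired form of the fit, raised the counts of enzymes called to 5 from 48 h to 72 h, 3 from 96 h to 108 h, 3 from 108 h to 120 h and 5 from 0 h to 120 h, and apart from the calls given above it changed no other call. At an adjusted p under 0.05 the counts were 4 (0 h to 6 h), 5 (24 h to 48 h), 7 (48 h to 72 h), 4 (72 h to 96 h), 4 (96 h to 108 h), 5 (108 h to 120 h) and 6 (0 h to 120 h), against 58.0%, 29.9%, 40.9%, 28.9%, 34.3%, 26.9% and 52.2% of all genes. Quantile normalization gave 2 for 48 h to 72 h and 2 for 108 h to 120 h. It also called 1 higher and 2 lower from 96 h to 108 h. From 0 h to 48 h it called 3 higher and 1 lower, and from 0 h to 120 h 1 higher and 3 lower. The compared libraries alone gave 0 for 48 h to 72 h, 72 h to 96 h and 96 h to 108 h and 3 for 108 h to 120 h. From 96 h to 108 h the count was 0 with no variance trend and 1 with median-centred libraries. Median centring called 5 higher and 1 lower from 0 h to 48 h. From 108 h to 120 h the count was 1 when the 9 contrasts were corrected together and 2 with the length trend removed, a setting chosen after seeing the data. With that trend removed, 1 was higher and 1 lower from 24 h to 48 h, and 0 and 6 from 48 h to 72 h. In the same setting 1 was higher and 2 lower from 96 h to 108 h, and 1 and 3 from 0 h to 120 h. Without 1 library at a time the counts ranged from 1 to 2 (0 h to 6 h), 3 to 4 (6 h to 24 h), 2 to 3 (24 h to 48 h), 3 to 4 (48 h to 72 h), 2 to 2 (72 h to 96 h), 0 to 3 (96 h to 108 h), 0 to 0 (108 h to 120 h), 4 to 5 (0 h to 48 h) and 2 to 3 (0 h to 120 h).

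Quantile normalization turned Dnmt3b (-0.14) and Uhrf1 (-0.28) from 0 h to 6 h, Dnmt3a from 96 h to 108 h (-0.11) and from 108 h to 120 h (0.04), and Dnmt1 (-0.34) and Uhrf1 (-0.08) from 0 h to 48 h. Median centring turned Tet2 from 48 h to 72 h (-0.04). Removing the length trend turned Tet2 from 48 h to 72 h (-0.03) and from 72 h to 96 h (0.03), Dnmt3a from 96 h to 108 h (-0.20) and from 0 h to 120 h (-0.19), and Dnmt1 (-0.02) and Tet3 (-0.01) from 0 h to 48 h. Without 1 library at a time the differences ranged from -0.05 to 0.10 for Dnmt3b (0 h to 6 h), -0.08 to 0.06 for Dnmt3l (24 h to 48 h), -0.16 to 0.21 for Tet2 (48 h to 72 h), -0.33 to 0.00 for Dnmt1 and -1.07 to 0.05 for Tet3 (72 h to 96 h), -0.08 to 0.25 for Dnmt3a and -0.35 to 0.10 for Dnmt3b (96 h to 108 h), -0.19 to 0.01 for Dnmt3a (108 h to 120 h) and -0.07 to 0.19 for Dnmt1 (0 h to 48 h). In the least deeply counted library 3 reads correspond to 0.316 CPM, far below the 9 enzymes, so depth limits only genes such as Cxxc4.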
